A study of Homo sapiens with 2 samples.

Results

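Homeobox genes encode transcription factors that bind DNA through a homeodomain. The genes described here are those whose symbol in the array annotation begins with one of the family names HOXA to HOXD, PBX, MEIS, PKNOX, TGIF, IRX, LHX, LMX1, NKX, DLX, EMX, MSX, BARX, PAX, PITX, POU, CUX, ONECUT, ZEB or HNF1, or with that of the sine oculis genes (SIX2 to SIX6 here), followed by a number (HNF1 by A or B). Symbols with -AS, which mark antisense transcripts, were left out. The rule found 115 of the 13763 named genes, and it used names and no measured values. Of these, 108 were counted as homeobox genes by family name alone, and whether each PAX gene holds a homeobox was not checked. The other 7 only share such a name. They are 4 pseudogenes (POU5F1P3, POU5F1P4, MEIS3P1 and MSX2P1), the POU coactivator genes POU2AF1 and POU2AF3, and EMX2OS, a transcript from the strand opposite EMX2. No gene of the HNF1 or LMX1 families was named, and of the HOXA cluster HOXA2 alone was.

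The cells were S2-013, a human pancreatic cancer line, in which HOXB7 had been knocked down and then restored from a rescue plasmid. Both groups carried the knockdown and the plasmid. One group received a MEK inhibitor, which blocks the kinase upstream of ERK, and the control did not. The sources used here do not name the compound, its dose, the exposure time or the knockdown method. Each group was 1 array of total RNA, so no value has a replicate error and no test was run. With bulk RNA, fewer cells of a kind and less RNA per cell cannot be told apart. Of the list of ductal epithelial markers, all 6 named genes reached the floor defined below in at least 1 array. Among them were EPCAM (10.5 in each array) and KRT19 (8.94 without and 8.87 with the inhibitor). CLDN4 read 4.90 without and 5.85 with the inhibitor. KRT7 reached the floor only with the inhibitor (4.56 without, 4.91 with). KRT18 read 11.58 without and 11.29 with the inhibitor, and KRT8 6.52 and 6.33. Of these 6 markers 3 read lower with the inhibitor and 3 higher.

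HOX proteins set positional identity along the body axis and bind DNA together with TALE homeodomain cofactors, the PBX, MEIS and PKNOX proteins. LIM homeodomain proteins act with LDB and SSBP adaptors, and the sine oculis proteins (SIX2 to SIX6) with EYA coactivators. ONECUT factors take part in liver and pancreas development, and ZEB1 and ZEB2 repress epithelial genes such as E-cadherin.

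Most of these genes read low on both arrays. A gene was counted as above the floor when the higher of its log2 values reached 4.7792, which is the middle value over all named genes of their mean in both arrays. This was so for 29 of the 115 members, or 25.2%, against a background of 52.1% of all named genes. The floor is a rank and not a detection limit. A stricter level was set after the data were seen, from the 85 keratin-associated protein genes, which encode proteins of the hair shaft and are not expected in pancreatic cells. The 95th percentile of their higher readings was 5.82. In all, 10 members (8.7%) reached it, against a background of 35.6% of named genes. These were LHX1, ONECUT2, CUX1, PBX2, PKNOX1, HOXB7, HOXB9, LHX3, ZEB1 and the pseudogene POU5F1P3. At the 75th percentile of all genes (6.45), 4 members were left (3.48%, against 26.7%): LHX1, ONECUT2, CUX1 and POU5F1P3. HOXB9 and ZEB1 reached the hair keratin level only without the inhibitor, and LHX3 only with it. Readings of different genes come from different probes and are not ranked here against each other.

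**Figure D1:**
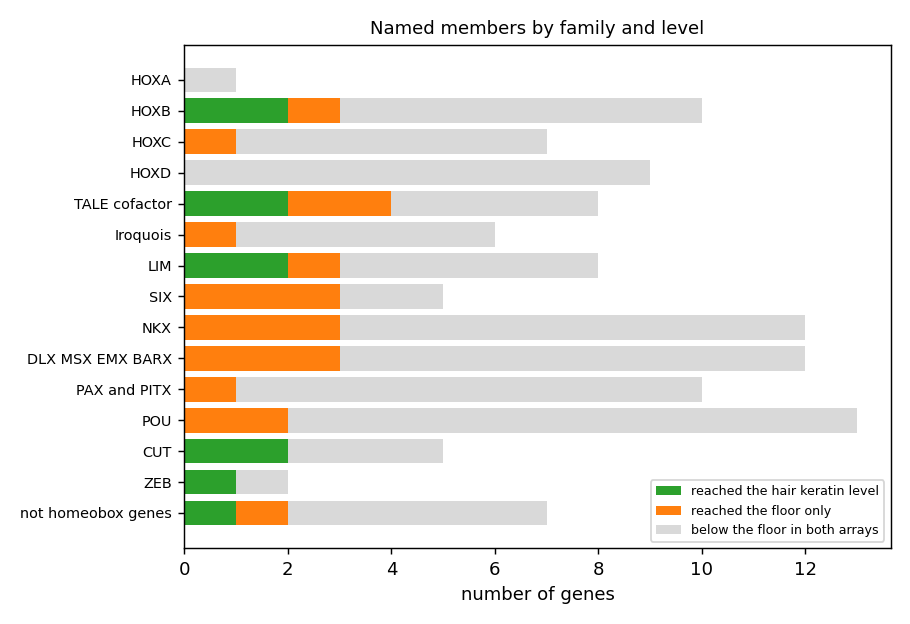
Number of named members (x axis) in each gene family (y axis), split by whether the higher of both arrays reached the level of hair keratin-associated genes (5.82, green), only the floor (4.78, orange), or neither (grey). Grey dominates: 86 of the 115 members lay below the floor in both arrays.

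Promoters of the members above the floor held more CG dinucleotides than those of the rest. RefSeq start-site sequences (GRCh38.p14) matched 17 of the 29 members above the floor and 54 of the 86 below it. Over the 250 bases before the start, averaged over the start sites of a gene, the median number of CG dinucleotides was 25 above the floor and 18 below it. All named genes differed in the same direction, with medians of 21 above the floor and 11 below it. The promoters of ONECUT2 and POU1F1 are printed as examples of a CpG-rich and a CpG-poor stretch, with each CG in capitals. They do not stand for their groups: POU1F1 has the fewest CG of the matched members below the floor, and ONECUT2 lies below the median of those above it. ONECUT2 had the largest difference between the arrays among the members above the floor with 1 listed start site. POU1F1, a pituitary factor gene, was the one of such members below it whose higher reading was lowest (2.17). The ONECUT2 stretch is chr18:57435124-57435373 on the plus strand, with 20 CG and 68.8% G or C. The POU1F1 stretch is chr3:87276585-87276834 on the minus strand, with 3 CG and 40.8% G or C.
ONECUT2: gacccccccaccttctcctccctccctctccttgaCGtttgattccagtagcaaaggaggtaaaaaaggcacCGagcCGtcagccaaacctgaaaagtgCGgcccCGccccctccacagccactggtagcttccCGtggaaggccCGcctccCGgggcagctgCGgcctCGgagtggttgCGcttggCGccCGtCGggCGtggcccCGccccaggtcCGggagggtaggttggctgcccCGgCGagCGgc
POU1F1: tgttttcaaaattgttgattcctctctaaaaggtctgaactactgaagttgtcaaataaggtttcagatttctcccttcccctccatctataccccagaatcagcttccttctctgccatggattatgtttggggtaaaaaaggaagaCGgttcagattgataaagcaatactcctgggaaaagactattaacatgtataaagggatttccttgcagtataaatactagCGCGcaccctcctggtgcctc

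Several short motifs were searched on both strands of these 250 bases. They were TAATTA (the homeodomain core), TGATTNAT (a HOX-PBX site), CCGGAA (an ETS site), TGANTCA (an AP-1 site) and CACCTG (an E-box bound by ZEB factors). No overlap between motifs was removed. CCGGAA occurred in 4 of 32 promoters of members above the floor (12.5%), in TGIF1 and ZEB1 only, against 14.5% of all 35116 promoters and 23.5% of those of named genes above the floor. TGATTNAT occurred in 2 of the 32, both of TGIF1 (6.25%, against 2.48% and 1.08%). TGANTCA occurred in 1 (3.12%, against 6.57% and 4.33%), CACCTG in 3 (9.38%, against 17.5% and 15.8%) and TAATTA in 0 (against 4.35% and 1.77%). Start sites of 1 gene share sequence, so the 32 promoters of 17 genes are not independent. Neither printed promoter held any of these motifs. A match is a run of letters and not a binding site.

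One member differed between the arrays by more than 2-fold. LHX1, a LIM homeodomain gene needed for head and kidney formation, read 7.89 without the inhibitor and 6.01 with it. The log2 difference, inhibitor minus no inhibitor, was -1.87, or 3.66-fold lower. It remained above the floor and above the hair keratin level in both arrays. Only 10 of the 7164 genes above the floor had a difference as low as this, LHX1 included. This 1 of 29 members lower by at least 2-fold compares with a background of 1.05%, and 0 of 29 were at least 2-fold higher, against 0.628%. With 29 genes a count of 1 or 0 is near what those shares give. At 1.5-fold the members' counts were the same, LHX1 lower and none higher, against backgrounds of 3.6% and 4.62%. LHX1 has 1 probe set, so its difference has no second reading within these arrays.

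The other 28 members above the floor had differences between -0.49 and 0.41. Where 2 probe sets of a gene were both above the floor (443 pairs from 145 genes, leaving out genes with identical copies), the median gap between their log2 differences was 0.16, and 95% of the gaps were at most 0.80. Each of these 28 differences therefore lay within the disagreement between probe sets of 1 gene. A gene with several probe sets enters several times, and the disagreement does not cover variation between cultures. Of the 29 members, 18 read lower with the inhibitor (62.1%, against a background of 46.1%) and 11 higher. Their median difference was -0.08, beside 0.03 over all 7164 genes. Among the 10 members above the hair keratin level 5 read lower, against a background of 46.3%, with a median of -0.02. HOXB9, ZEB1 and LHX3 passed that level in 1 array only, which fixed their direction. HOXB6 and NKX1-2 likewise passed the floor in 1 array only. These counts therefore cannot show whether the lean towards lower readings depends on the level.

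**Figure D2:**
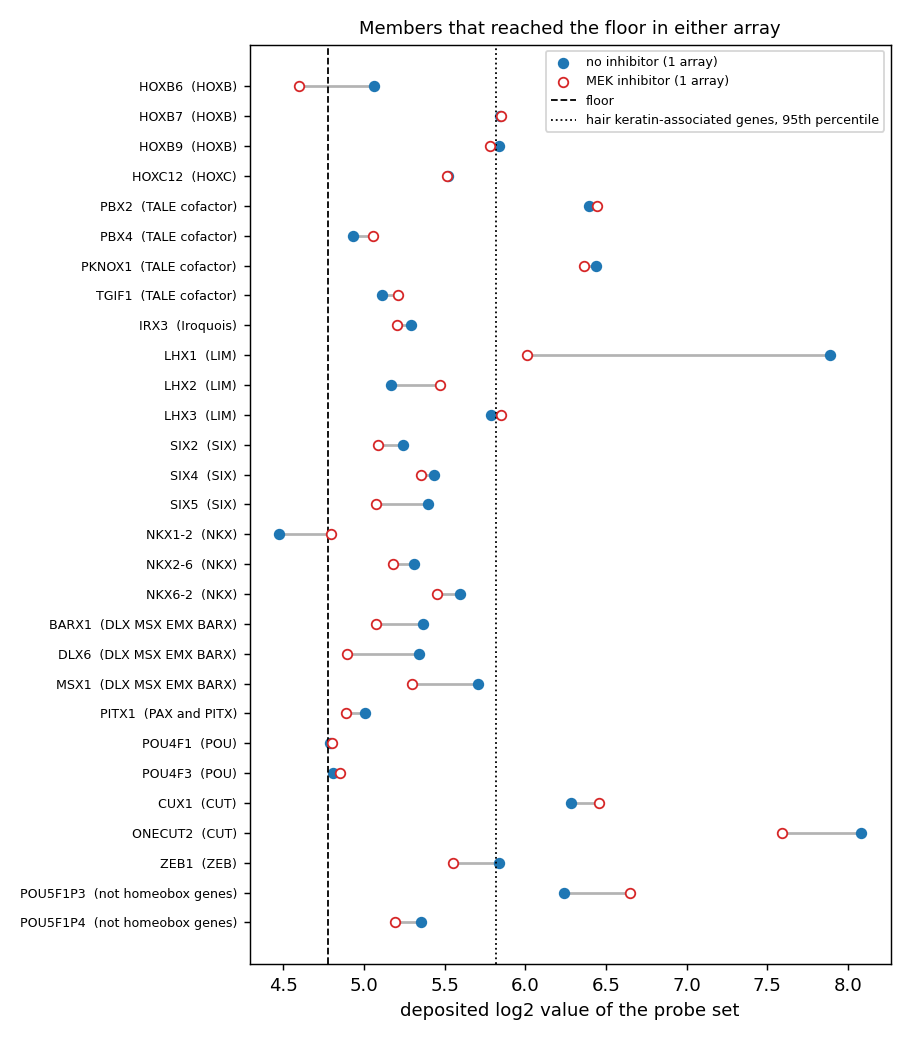
Deposited log2 values (x axis) of the 29 members that reached the floor in either array (y axis, with the family), for the array without inhibitor (filled) and with MEK inhibitor (open). Dashed and dotted lines mark the floor (4.78) and the 95th percentile of hair keratin-associated genes (5.82). LHX1 has the widest gap, from 7.89 to 6.01, and ONECUT2 the next, from 8.08 to 7.59.

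**Figure D3:**
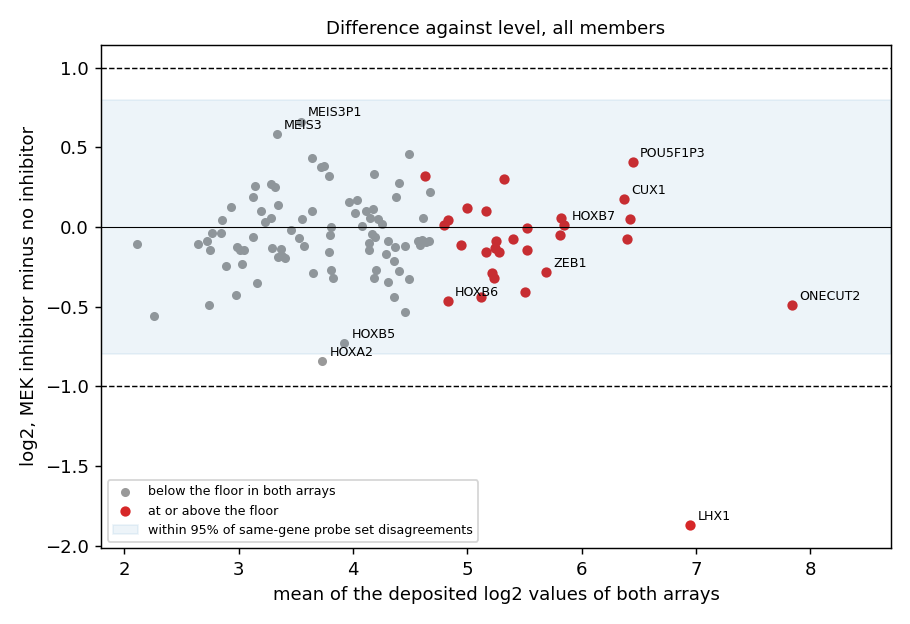
Log2 difference, MEK inhibitor minus no inhibitor (y axis), against the mean log2 value of both arrays (x axis) for all 115 members, with those at or above the floor in red and the rest in grey. Dashed lines mark 2-fold, and the shaded band (0.80 either way) holds 95% of the disagreements between probe sets of 1 gene above the floor. LHX1 lies outside the 2-fold lines and HOXA2 (-0.84) just outside the band. HOXA2 is below the floor, where this disagreement was not measured.

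Of the HOX clusters, HOXB had the most genes above the floor, 3 of 10. HOXB7, the gene the cells were engineered for, read 5.84 without the inhibitor and 5.85 with it, a difference of 0.01. Its sign turned negative when the scaling of the arrays was changed (-0.02 after subtraction of the median difference), so it has no direction. Both groups carried the rescue plasmid, so the HOXB7 readings may hold transcript of the plasmid, of the cells' own gene or of both. HOXB9 read 5.84 without and 5.78 with the inhibitor, a difference of -0.05. HOXB6, which lies beside HOXB7, read 5.06 without and 4.596 with it, a difference of -0.47 that ends below the floor.

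The neighbours of HOXB7 within the cluster did not move one way. HOXB5, on the far side of HOXB6, read 4.29 without and 3.56 with the inhibitor, a difference of -0.73. HOXB8, which lies between HOXB7 and HOXB9, read 3.42 and 3.85, a difference of 0.43. HOXB5 and HOXB8 lay below the floor in both arrays, as did HOXB1, HOXB2, HOXB3, HOXB4 and HOXB13, whose differences ran from -0.23 (HOXB4) to 0.33 (HOXB2).

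The other HOX clusters were nearly all below the floor. HOXC12, a posterior HOX gene, was the 1 of 7 HOXC genes above it and read 5.52 in each array. Its difference was -0.01. HOXC4, HOXC8, HOXC9, HOXC10, HOXC11 and HOXC13 had differences between -0.18 and 0.17. All 9 HOXD genes were below it, with differences between -0.43 (HOXD1) and 0.46 (HOXD10, 4.26 without and 4.72 with the inhibitor). The other HOXD genes named were HOXD3, HOXD4, HOXD8, HOXD9, HOXD11, HOXD12 and HOXD13. HOXA2, a hindbrain patterning gene, read 4.15 without and 3.31 with the inhibitor, and its difference of -0.84 was the lowest of the 86 members below the floor.

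Among the TALE cofactors 4 of 8 reached the floor, and their differences were small. PBX2, a HOX partner encoded in the major histocompatibility region, read 6.39 without and 6.44 with the inhibitor, a difference of 0.05. It has 6 probe sets, of which 3 share one pair of values and 2 another, and their differences lay between 0.02 and 0.12. PKNOX1, which forms dimers with PBX proteins, read 6.44 without and 6.36 with the inhibitor, a difference of -0.08. PBX4 had 4.93 and 5.05, a difference of 0.12. TGIF1, a corepressor that acts on SMAD and retinoid targets, read 5.11 and 5.21, a difference of 0.10.

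The MEIS genes and PBX3 were below the floor. MEIS2 read 4.72 without and 4.18 with the inhibitor, a difference of -0.54, and its second probe set read -0.43. MEIS3 read 3.04 and 3.63, a difference of 0.58, and the pseudogene MEIS3P1 had 3.21 and 3.87, a difference of 0.66. MEIS3 and MEIS3P1 share sequence, so their readings are not independent and may hold each other's signal. MEIS1 had a difference of 0.11 and PBX3 of 0.19.

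The other LIM genes above the floor read slightly higher. LHX2, a factor of forebrain and hair follicle development, read 5.17 without and 5.47 with the inhibitor. Its difference was 0.30, and 0.27 in a second probe set that read below the floor (3.18 and 3.46). LHX3, a pituitary and motor neuron factor, read 5.79 and 5.85, a difference of 0.06. The 5 other LIM members (LHX4, LHX5, LHX6, LHX8 and LHX9) were below the floor, with differences between -0.15 and 0.26. ISL1, a LIM homeodomain gene outside the name rule, read 5.72 without and 4.99 with the inhibitor, a difference of -0.74, but its second probe set read 4.63 and 4.64, a difference of 0.02. ISL2 had 0.27 in one probe set and -0.18 in the other.

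Genes beside LHX1 on its chromosome did not share its difference. MRM1 and AATF, the nearest named genes on either side in the RefSeq order, had differences of -0.20 (6.27 without, 6.07 with) and -0.41 (10.04 without, 9.63 with). Of 8 named neighbours, 4 on each side, the differences lay between -0.41 and 0.13.

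**Figure D4:**
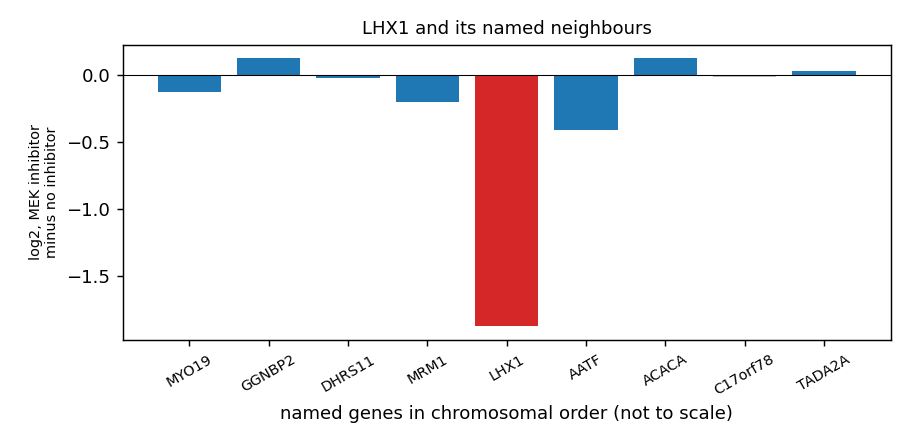
Log2 difference, MEK inhibitor minus no inhibitor (y axis), of LHX1 (red) and the 4 nearest named genes on each side in chromosomal order (x axis, not to scale). Blue bars are genes above the floor, and C17orf78, drawn grey, is below it. LHX1 (-1.87) lies far below AATF (-0.41), the lowest of its neighbours.

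The CUT family gave the gene with the second lowest difference above the floor. ONECUT2, a hepatic and pancreatic developmental factor, read 8.08 without and 7.59 with the inhibitor, a difference of -0.49. The next named gene after it, the heme synthesis gene FECH, read 5.49 and 6.30, a difference of 0.80 in the opposite direction. CUX1 had 6.28 without and 6.46 with the inhibitor, a difference of 0.17. ONECUT1, ONECUT3 and CUX2 were below the floor, with differences between -0.27 and 0.04.

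The DLX, MSX and BARX genes above the floor, 1 of each family, read lower. DLX6, a craniofacial patterning gene, had 5.34 without and 4.90 with the inhibitor (-0.44). MSX1, a tooth and palate gene, read 5.71 and 5.30 (-0.41). BARX1, a stomach patterning gene, read 5.36 and 5.08 (-0.29). These 3 differences lie inside the 0.80 band. The other 9 genes of the DLX, MSX, BARX and EMX families, DLX1 to DLX5, EMX1, EMX2, MSX2 and BARX2, were below the floor, with differences between -0.35 and 0.22. DLX2, with a higher reading of 4.7785, missed the floor of 4.7792 by the narrowest margin, and NKX1-2 (4.79) passed it by a small one.

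The 3 sine oculis genes above the floor also read lower, by small amounts. SIX5 had 5.39 without and 5.07 with the inhibitor (-0.32), and its second probe set gave -0.55. SIX2, a nephron progenitor factor, read 5.24 and 5.09 (-0.16). SIX4, a muscle development factor, had 5.43 and 5.36 (-0.08). SIX3 and SIX6 were below the floor (-0.12 and -0.02).

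NKX genes split in direction. NKX6-2, a factor of the neural tube and oligodendrocytes, read 5.60 without and 5.45 with the inhibitor (-0.15). NKX2-6 had 5.31 and 5.18 (-0.13). NKX1-2 read 4.47 and 4.79 (0.32) and reached the floor only with the inhibitor. The other 9 NKX genes, among them NKX2-8 with a higher reading of 4.68, had differences between -0.29 and 0.27. Regulators of pancreatic endocrine development, picked after their values were seen, lay on both sides of the floor. Below it, NKX6-1 read 4.52 without and 4.40 with the inhibitor, NKX2-2 3.98 and 4.06, PAX6 3.53 and 3.91, and ONECUT1 2.83 and 2.88. Above it were PDX1, MNX1 and ISL1, which are homeobox genes outside the name rule. PDX1 read 4.9965 and 4.9244, just above the floor, and MNX1 5.14 and 5.25. ISL1 read 5.72 and 4.99 in 1 of its 2 probe sets, and the other was below the floor.

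Paired-type, POU and Iroquois genes mostly lay below the floor. PITX1, a hindlimb gene, read 5.0035 without and 4.89 with the inhibitor (-0.11), and the other 9 of the PAX and PITX genes were below it, between -0.33 and 0.38. IRX3 had 5.29 and 5.21 (-0.09), and the 5 other Iroquois genes were between -0.44 and 0.06. POU4F1 and POU4F3, factors of sensory neurons and hair cells, were the 2 of 13 POU genes above the floor, with differences of 0.01 and 0.04. The sign of both turned after subtraction of the loess trend, and that of POU4F1 also after subtraction of the median difference. The 11 POU genes below it, among them POU3F2 with a higher reading of 4.71, had differences between -0.56 and 0.38. POU5F1P3, a pseudogene of the pluripotency factor gene POU5F1, read 6.24 without and 6.65 with the inhibitor (0.41), whereas POU5F1P4 had 5.35 and 5.19 (-0.16) and POU5F1 itself 3.63 and 3.95. These near-identical copies may hold each other's signal, so the values of each are uncertain. The other 5 members not counted as homeobox genes were below the floor, and apart from MEIS3P1 their differences ran from -0.20 to 0.19.

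ZEB1, a repressor of epithelial junction genes, read 5.83 without and 5.55 with the inhibitor, a difference of -0.29. ZEB2, its paralogue, read 4.34 and 4.02, below the floor, a difference of -0.32. Genes that ZEB factors are known to repress were listed from general knowledge. Of 35 listed, 24 were named, and the E-cadherin gene CDH1 was not among them. Of the 24 named, 23 were above the floor, 17 read higher and 6 lower (53.9% of all genes read higher). Their median was 0.26, beside 0.03 over all genes. Any link to the readings of ZEB1 and ZEB2 was not tested. At 1.5-fold 3 were higher and 0 lower, against backgrounds of 4.62% and 3.6%. These were the claudin genes CLDN4 (4.90 without, 5.85 with, 0.95) and CLDN3 (7.92 and 8.86, 0.93) and the tight junction gene CGN (5.06 and 5.86, 0.80). PATJ, a tight junction scaffold gene, followed at 0.50, and PKP2, a desmosomal plakophilin, was the lowest of the probe sets used at -0.45. KRT18 was counted at -0.29, but its second probe set, also above the floor, read 7.54 without and 6.88 with the inhibitor. That difference of -0.66 is past 1.5-fold lower.

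The members below the floor had little that passed 1.5-fold. Of 86, HOXA2 and HOXB5 were lower by that much (2.33%, against 1.49% of genes below the floor) and MEIS3P1 was higher (1.16%, against 1.67%). None reached 2-fold. Their median difference was -0.09, and 53 of 86 read lower (61.6%, against 52.4%).

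Other homeobox genes and the partner proteins were read beside the members. Of 77 named homeobox genes outside the name rule, 22 were above the floor, 14 read lower and 8 higher (46.1% of all genes read lower), with a median of -0.09. ISL1 alone was past 1.5-fold, against a background of 3.6% lower. HOMEZ (-0.43), CDX1 (-0.41) and VAX2 (-0.35) followed. HHEX, a liver and pancreas factor, read 6.19 without and 5.87 with the inhibitor.

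Partners of LIM, sine oculis, TGIF and ZEB proteins held 16 genes above the floor of 26 named. Of these 9 read higher and 7 lower, with a median of 0.03, beside 0.03 over all genes, and none past 1.5-fold (backgrounds 3.6% lower and 4.62% higher). LMO4, a LIM-only protein that competes for LDB1, read 0.54, the adaptor gene SSBP2 0.51 and the corepressor gene CTBP1 0.47. The deacetylase gene HDAC2 read -0.44, but 0.16 in its second probe set, which lay below the floor.

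Trithorax and polycomb proteins keep HOX genes on or off. Of 26 named regulators, 25 were above the floor, 12 lower and 13 higher, with a median of 0.03. At 1.5-fold 1 was lower (WDR5) and 1 higher (CBX6), near the backgrounds of 3.6% and 4.62%. WDR5, a core subunit of the MLL histone methyltransferase complexes, read 6.73 without and 5.73 with the inhibitor, a difference of -0.997 that lies just short of 2-fold. The polycomb gene CBX6 read 6.70 and 7.53 (0.83), but 0.17 in its second probe set. PHC1 read -0.50 and -0.18 in its second probe set, and CBX7 0.44.

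Genes reported elsewhere as HOXB7 targets or partners were listed from general knowledge. Of 18 named, 11 were above the floor, 9 read lower and 2 higher (46.1% of all genes read lower), with a median of -0.11 beside 0.03 over all genes. None was past 1.5-fold, which with 11 genes is near the backgrounds of 3.6% lower and 4.62% higher. VEGFA read 7.67 without and 7.30 with the inhibitor (-0.37), MYC -0.35, SMAD3 -0.20 and the coactivator gene CREBBP -0.18. PBX2 and SMAD3 are also counted in other groups here. Likewise, KRT8, KRT18, KRT19, EPCAM and CLDN4 are in both the list of genes that ZEB factors repress and the ductal marker list.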

How the data were processed

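Total RNA of 2 samples, 1 per group as their titles give, was measured on Affymetrix whole-transcript arrays. The authors deposited 1 value per probe set and array, taken here as log2 from the values. Affymetrix Expression Console 1.3 is named in the submitters' processing notes. How background was corrected and arrays were normalized is not given in the sources used here. Array medians were 3.46 with the inhibitor and 3.49 without, and a method that equalises arrays hides a change in total RNA. Whole-transcript summaries compress large folds.

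Of 53617 probe sets, 16098 had a gene symbol. Small RNA symbols (MIR, SCARNA) were set aside, and each gene took its probe set with the highest mean. Entrez identifiers gave the same symbol in the reference for all 115 members. Differences are inhibitor minus no inhibitor on the log2 scale, and 1 array per group limits precision and allows no test. The counting step was run on a shuffled copy of the data with planted differences larger than that of any member. That run checks the code and does not bear on the differences reported here. Members and lists were chosen with earlier results of these data known. Values are named for every member above the floor, HOXB7, members below it past 2-fold and the 5 with the highest readings below it. Further members below the floor, such as HOXB5 and MEIS3, are given with values outside this rule. For other lists, up to 4 genes with the largest differences are named, and further genes were chosen after their values were seen. Alternatives were 2 scalings, 3 other floors, averaged probe sets and thresholds of 1.5-fold and 3-fold. Python 3.11.15, numpy 2.4.6, pandas 2.3.3 and statsmodels 0.14.6 were used.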

Additional observations from a re-analysis of the deposited data

How the results depend on the processing

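No paired analysis was possible because there is 1 array a group, and no array could be left out. The floor set how many members counted as measured: 29 at the median, 115 with no filter, 4 at the 75th percentile (6.45) and 10 at the level of keratin-associated genes, the last chosen after seeing the data. A planned floor from olfactory receptor genes was not run, since 1 such gene was named. LHX1 stayed the 1 member at least 2-fold lower, and none was 2-fold higher, under every scaling, floor, averaging and threshold tried, 3-fold included. Only the scalings could move the value of LHX1. It has 1 probe set, cleared every floor without the inhibitor (7.89) and was 3.66-fold lower. These alternatives therefore do not replace a second reading or a replicate. The difference of LHX1 ran from -1.91 to -1.87. The median difference of members above the floor was -0.08. Under the alternatives it ran from -0.16 (75th percentile floor, 4 members) to -0.02 (keratin-associated level, 10 members). After subtraction of the loess trend 26 of 29 members kept their sign and 21 read lower, and after subtraction of the median difference 27 and 20. HOXB7, POU4F1 and POU4F3 were those that changed sign. Without detection calls, whether a member near the floor was above background is unknown.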

Other observations

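Of 10 antisense transcripts of homeobox loci that the name rule left out, 3 were above the floor. PAX8-AS1 read 5.83 without and 5.82 with the inhibitor, a difference of -0.02. HOXA10-AS had 5.09 and 4.75 (-0.34), and HOXC13-AS 5.01 and 4.96 (-0.05). ZEB1-AS1 was below the floor, with a difference of -0.05.

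Markers of cell types were summed over named genes on the linear scale. The ductal epithelial list summed to 5099 without and 4586 with the inhibitor, with 6 of 6 genes above the floor. The mesenchymal list summed to 90.9 and 69.4, with 1 of 4 genes above the floor, and the endothelial list to 116.0 and 98.3, with 2 of 5 above it. The leukocyte list summed to 844 and 649, with 3 of 4 above it, and the acinar and endocrine list to 74.1 and 76.4, with 1 of 6. A sum adds different probes and holds readings below the floor. The part of these readings in the members' differences was not tested.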
